A study of Mus musculus with 8 samples.

Results

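Matrix metalloproteinases are zinc-dependent enzymes that cut collagens, elastin, fibronectin and many cell-surface proteins. They are made as inactive proenzymes, and tissue inhibitors of metalloproteinases (TIMPs) bind the active site of the processed enzyme. Macrophages are known to make several of both. Transcript levels describe what a cell could make of enzyme and inhibitor, not the activity in the fluid. The genes examined here were the 6 metalloproteinases Mmp8, Mmp9, Mmp12, Mmp13, Mmp14 and Mmp19 and the 3 inhibitors Timp1, Timp2 and Timp3. These 9 genes were taken by symbol from the 23469 genes of the table, and all 9 were listed. Of these, 8 reached the mean of 1 TPM (transcripts counted against gene length and library total) needed for testing and Timp3 did not. The filter kept 8801 genes in all.

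The libraries came from macrophages sorted from malignant ascites of female C57BL/6 Ms4a3TdT fate-mapping mice, which had been given ID8 cells, a mouse ovarian surface epithelial tumour line, by intraperitoneal injection several weeks before the ascites was taken. In these mice a Cre driven by Ms4a3, a gene of granulocyte-monocyte progenitors, marks the progeny with tdTomato, so that the division by origin is only as complete as that labelling. Ascites-enriched embryonic macrophages (AeEMs) were the tdTomato-negative cells and ascites-enriched monocyte-derived macrophages (AeMMs) the tdTomato-positive cells of a gate that took CD45+ CD11b+ macrophages and left out Ly6G+, Siglec F+ and Ly6C+ cells, with 4 libraries of each. No mouse without tumour or sample before injection was compared, and all 8 libraries share the tumour, the genotype and the gate.

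The deposited values are log2(TPM + 1) and carry an adjustment between 3 sets of libraries, namely replicate 1 of both groups, replicate 2 of both groups, and replicates 3 plus 4, which leaves the set means of a gene nearly equal. AeEMs were compared with AeMMs by limma without pairing. Apart from those of dendritic markers, every call is given beside a second fit that has set in the model. No read counts were used, so the depth is unknown and the precision rests on 4 libraries per group. The labels call the replicates biological. The methods give 4 mice for the 8 libraries, so AeEM and AeMM libraries can share a mouse. Neither they nor the labels say that equal replicate numbers do, and the unpaired fits and permutations take the 8 libraries as separate samples. After the adjustment between sets the 8 values of a gene are not fully independent. Neither the unpaired limma fits nor the permutation p between groups, here and for sums and shares, take this into account. Each SE given with a fold change is that of the unpaired fit. All 8 macrophage markers fixed for this check were above 1 TPM, among them Csf1r at 184 TPM and Cd68 at 3639 TPM on average, and none of the 8 passed the test.

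Timp2 was the most abundant of the 9 genes in both populations, followed by Timp1. Next came Mmp9 (5.81 TPM) and Mmp14 (5.58 TPM) in AeEMs, and Mmp14 (7.88 TPM) and Mmp9 (3.90 TPM) in AeMMs. Mmp14, the membrane-bound collagenase, was at a lower value in each AeEM library than in any AeMM library. So were 6.53% of all tested genes, and 5.72% had every AeEM library higher. The means of Mmp13, Mmp8, Mmp9 and Mmp19 were higher in AeEMs than in AeMMs by 0.33 to 0.88 on the log2 scale, with groups that overlapped, and those of Mmp12, Timp1 and Timp2 differed by 0.15 or less. In bulk libraries of sorted cells, fewer cells that express a gene cannot be told apart from less RNA per cell.
Of the 8 genes tested, none passed a Benjamini-Hochberg adjusted p of 0.05 in limma, where 2.41% of all 8801 genes did. With set in the model again none of the 8 passed, where 0.159% of all genes did. The adjusted p ran from 0.11 for Mmp14 to 0.88 for Mmp12 in the unpaired fit, and from 0.45 to 0.96 with set in the model. At an unadjusted limma p of 0.05, 3 of the 8 passed, which were Mmp8, Mmp9 and Mmp14, where 18.0% of all genes did. With set in the model that number was 1, Mmp14, where 9.64% of all genes did. The median of the 8 log2 fold changes, AeEM minus AeMM, was 0.24 and their median size 0.38, beside -0.01 and 0.16 over all tested genes. Mmp8 and Mmp13 entered the test through their level in AeEMs, since both stayed under a mean of 1 TPM in AeMMs, and the medians carry that bias.

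Sequences around the annotated starts are given for 3 genes. Mmp14 is the only one of the 9 whose groups did not overlap. Groups were as separate in 6.53% of all tested genes with AeEMs lower and in 5.72% with AeEMs higher. Mmp13 has the widest difference and the widest spread, and Timp2 is the most abundant of the 9. The RefSeq promoter table on GRCm38.p6, the same coordinates as mm10, held 7 of the 9 genes. Mmp9 and Mmp19 had no entry. Each stretch runs 5′ to 3′ from 250 bases before the start to 50 bases after it. Capitals mark TGANTCA, the core bound by AP-1 factors, and TATAAA, the TATA box, both searched on either strand.
Mmp14, chr14:54431348-54431647, plus strand: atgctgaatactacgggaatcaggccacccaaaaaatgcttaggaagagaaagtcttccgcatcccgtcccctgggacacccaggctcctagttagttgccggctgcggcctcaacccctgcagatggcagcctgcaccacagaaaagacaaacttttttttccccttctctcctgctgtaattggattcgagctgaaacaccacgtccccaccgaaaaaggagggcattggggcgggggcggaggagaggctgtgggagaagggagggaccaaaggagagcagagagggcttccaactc
Mmp13, chr9:7272264-7272563, plus strand: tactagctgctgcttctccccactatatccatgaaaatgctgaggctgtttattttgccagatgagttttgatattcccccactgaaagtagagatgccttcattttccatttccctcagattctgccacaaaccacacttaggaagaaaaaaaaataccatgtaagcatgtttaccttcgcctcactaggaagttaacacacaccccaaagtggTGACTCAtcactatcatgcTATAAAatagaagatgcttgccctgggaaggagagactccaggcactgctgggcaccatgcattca
Timp2, chr11:118355362-118355661, minus strand: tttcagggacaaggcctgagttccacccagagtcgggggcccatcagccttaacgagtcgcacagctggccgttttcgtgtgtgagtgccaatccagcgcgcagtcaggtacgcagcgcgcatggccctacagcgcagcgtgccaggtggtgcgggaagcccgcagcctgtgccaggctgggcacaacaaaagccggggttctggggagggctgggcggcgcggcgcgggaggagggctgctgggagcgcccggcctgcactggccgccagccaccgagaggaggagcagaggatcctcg
The Mmp13 stretch held 1 AP-1 core, whose first base lies 35 bases before the start, and 1 TATA box, 16 bases before it. Of 32851 promoter windows of this length, 7.81% held the AP-1 core and 13.6% the TATA box. The Mmp14 and Timp2 windows held neither, which says only that these letters are not in them. Their GC content was 56.0% for Mmp14 and 68.7% for Timp2, against 43.7% for Mmp13 and a median of 52.7% over all windows.

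Mmp14 encodes membrane-type 1 metalloproteinase, which sits in the plasma membrane, cuts fibrillar collagen around the cell and activates the MMP2 proenzyme. The gene lies on chromosome 14 of mm10 from 54431612 to 54445364. It stood at 2.54, 2.60, 2.75 and 2.95 in AeEM replicates 1 to 4, against 3.26, 3.27, 2.999 and 3.06 in AeMM replicates 1 to 4 (log2(TPM + 1)). All 4 AeEM libraries lay below all 4 AeMM libraries, and the closest 2 were AeEM replicate 4 and AeMM replicate 3. Of all tested genes, 6.53% had such separate groups with AeEMs lower and 5.72% with AeEMs higher. The means were 2.71 ± 0.18 in AeEMs and 3.15 ± 0.14 in AeMMs (SD, n = 4 each), which is 5.58 TPM in AeEMs and 7.88 TPM in AeMMs.
The log2 fold change of Mmp14 was -0.44 (SE 0.12, limma adjusted p = 0.11 unpaired and 0.45 with set in the model). Its 95% interval ran from -0.72 to -0.16 in the unpaired fit and from -0.82 to -0.06 with set in the model, neither corrected for the number of genes tested. The two-sided exact permutation test gave p = 0.0286, the smallest it can give over 70 arrangements. These arrangements move libraries between sets and take no account of the adjustment between them. Set by set, Mmp14 differed by -0.73 (replicate 1), -0.67 (replicate 2) and -0.18 (replicates 3 plus 4), so that it was negative in each set but far smaller in the set that holds 2 libraries per group.

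Mmp9 encodes gelatinase B, which degrades denatured collagen and type IV collagen of basement membranes and is stored in neutrophil granules as well as made by macrophages. The gene lies on chromosome 2 from 164940780 to 164955850. It stood at 2.84, 2.60, 2.40 and 3.14 in AeEM replicates 1 to 4, against 2.16, 2.44, 2.36 and 2.19 in AeMM replicates 1 to 4 (log2(TPM + 1)). AeEM replicates 1, 2 and 4 lay above every AeMM library, and AeEM replicate 3 fell among them. Mmp9 averaged 2.74 ± 0.32 in AeEMs and 2.29 ± 0.14 in AeMMs (SD, n = 4 each), with a log2 fold change of 0.45 (SE 0.17, limma adjusted p = 0.19 unpaired and 0.54 with set in the model). The exact permutation p was 0.057.

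Mmp19 encodes a secreted metalloproteinase that cuts basement membrane proteins and is found in myeloid cells. It lies on chromosome 10 from 128790910 to 128800824, and 22.3% of its annotated exon bases are shared with Tmem198b on the opposite strand. Tmem198b itself averaged 0.82 TPM in AeEMs and 0.62 TPM in AeMMs, and nothing states that reads were counted by strand. Mmp19 stood at 2.68, 2.35, 2.17 and 2.86 in AeEM replicates 1 to 4, against 2.04, 2.34, 2.26 and 2.10 in AeMM replicates 1 to 4 (log2(TPM + 1)). As for Mmp9, AeEM replicates 1 and 4 were the highest and AeEM replicate 3 lay within the AeMM range. The log2 fold change of Mmp19 was 0.33 (SE 0.16, limma adjusted p = 0.34 unpaired and 0.69 with set in the model).

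**Figure D1:**
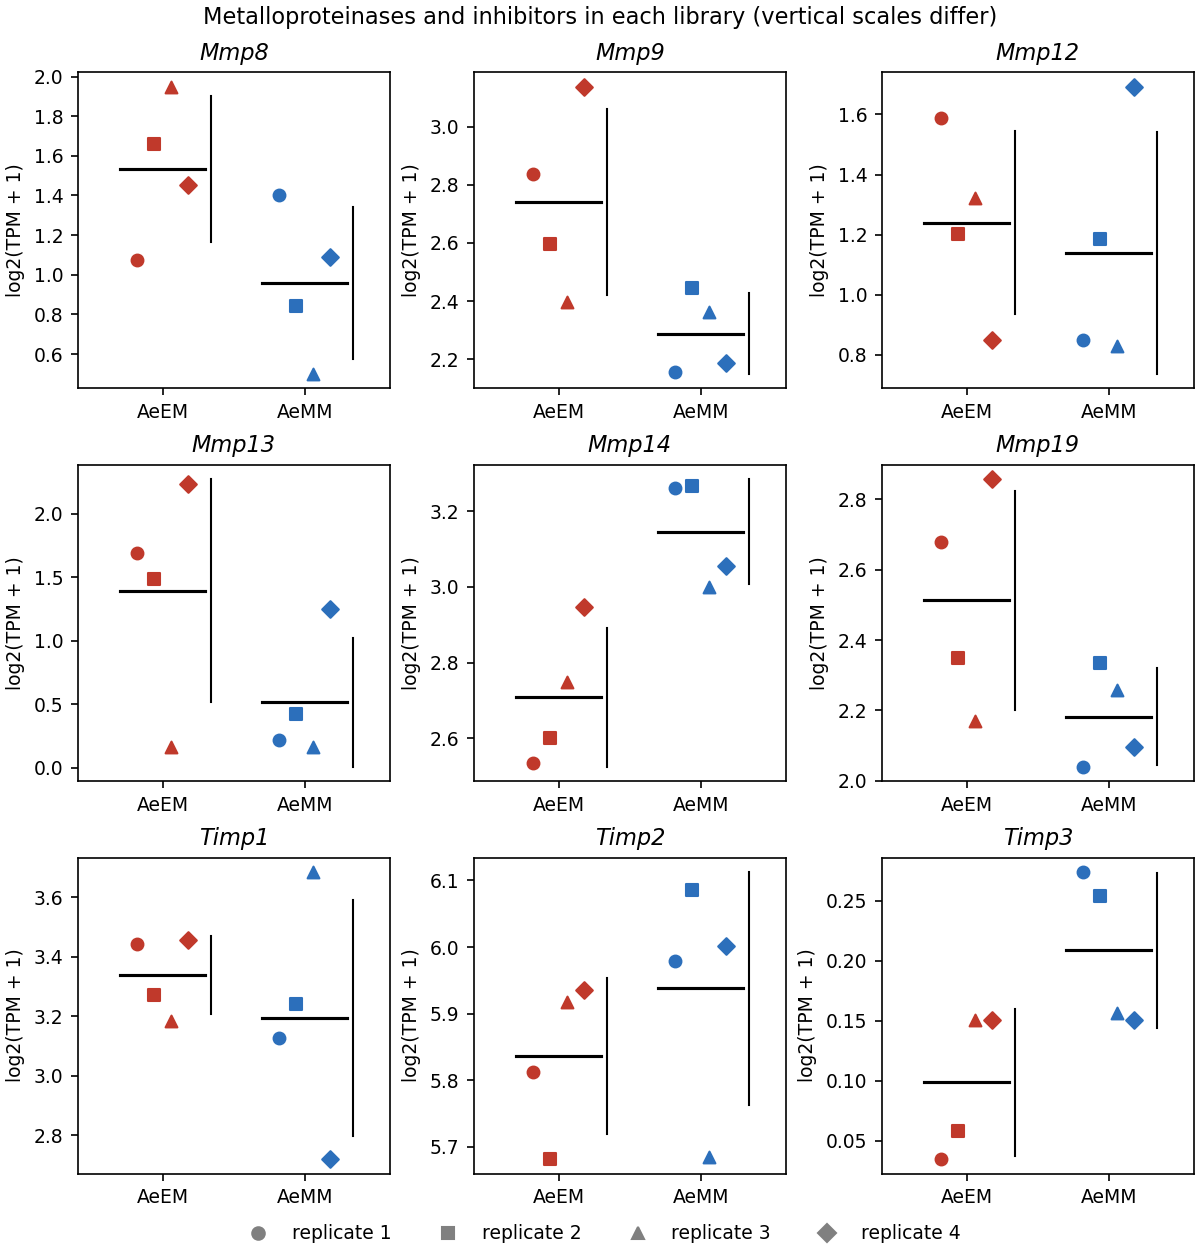
Values of the 9 genes in each library, in log2(TPM + 1), with AeEMs (red) left of AeMMs (blue). Shapes stand for replicate numbers, a horizontal line for the mean of 4 libraries and a vertical bar for 1 SD to each side. Mmp14 is the only panel among the 9 in which all AeEM libraries sit on one side of all AeMM libraries. Such separate groups occur in 6.53% of all tested genes with AeEMs lower and in 5.72% with AeEMs higher.

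Mmp13 encodes collagenase 3, the main interstitial collagenase of mice. The gene lies on chromosome 9 from 7272514 to 7283331. It stood at 1.69, 1.48, 0.17 and 2.23 in AeEM replicates 1 to 4, against 0.22, 0.42, 0.17 and 1.25 in AeMM replicates 1 to 4 (log2(TPM + 1)). Both libraries of replicate 3 carry the same lowest value. Whether that value is a floor left by the adjustment between sets was not tested, so it is not read as a measured level. AeEM replicates 1, 2 and 4 lay above all AeMM libraries, and AeMM replicate 4 stood apart from the other 3 of its group. Mmp13 had the widest fold change of the 8, at 0.88 (SE 0.43, limma adjusted p = 0.33 unpaired and 0.62 with set in the model), and its 95% interval ran from -0.09 to 1.84. Without AeEM replicate 3, which is at that lowest value, the log2 fold change was 1.29 and the limma adjusted p was 0.075. Leaving out AeMM replicate 3, at the same value, moved it the other way, to 0.76 (limma adjusted p = 0.45). Its level was low throughout, with a mean of 1.96 TPM in AeEMs and 0.50 TPM in AeMMs.

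Mmp8 encodes the collagenase named for neutrophils. It lies on chromosome 9 from 7558456 to 7568485 and stood at 1.08, 1.66, 1.95 and 1.45 in AeEM replicates 1 to 4, against 1.40, 0.84, 0.50 and 1.09 in AeMM replicates 1 to 4 (log2(TPM + 1)). AeEM replicate 1 was below 2 of the AeMM libraries, and the other 3 AeEM libraries were above all of them. The log2 fold change of Mmp8 was 0.58 (SE 0.24, limma adjusted p = 0.25 unpaired and 0.58 with set in the model). It differed in sign between the sets, at -0.32 for replicate 1, 0.81 for replicate 2 and 0.91 for replicates 3 plus 4.

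Mmp12 encodes macrophage elastase. It lies on chromosome 9 from 7344381 to 7369499 and its end overlaps Mmp1b on the opposite strand, over 2.17% of its exon bases. Mmp12 stood at 1.59, 1.20, 1.32 and 0.85 in AeEM replicates 1 to 4, against 0.85, 1.19, 0.83 and 1.69 in AeMM replicates 1 to 4 (log2(TPM + 1)). The groups covered nearly the same range. Its log2 fold change of 0.10 (SE 0.23, limma adjusted p = 0.88 unpaired and 0.96 with set in the model) had a 95% interval from -0.42 to 0.62.
Mmp8, Mmp12 and Mmp13 belong to a cluster of 10 metalloproteinase genes over 427.1 kb of chromosome 9, from 7272514 to 7699585. Of the other genes of the cluster, Mmp27 averaged 4.27 TPM over the 8 libraries, more than each of the 3. Mmp3 averaged 0.00636 TPM, and Mmp10, Mmp20 and Mmp7 averaged less. Mmp27, a metalloproteinase of the stromelysin type, averaged 2.24 ± 0.46 in AeEMs and 2.45 ± 0.45 in AeMMs (log2(TPM + 1), SD, n = 4 each) and did not pass (limma adjusted p = 0.77, and 0.91 with set in the model).

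Timp2 encodes an inhibitor of most metalloproteinases that also docks the MMP2 proenzyme to membrane-type 1 metalloproteinase. It lies on chromosome 11 from 118301069 to 118355740 and was by far the most abundant of the 9, at 56.3 TPM in AeEMs and 60.6 TPM in AeMMs. It stood at 5.81, 5.68, 5.92 and 5.94 in AeEM replicates 1 to 4, against 5.98, 6.09, 5.68 and 6.00 in AeMM replicates 1 to 4 (log2(TPM + 1)). AeMM replicate 3 lay within 0.01 of the lowest AeEM library and the other 3 AeMM libraries above all AeEM libraries. The log2 fold change of Timp2 was -0.10 (SE 0.10, limma adjusted p = 0.67 unpaired and 0.88 with set in the model). Its 95% interval, the narrowest of the 8, ran from -0.33 to 0.13 in the unpaired fit and from -0.40 to 0.20 with set in the model.

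Timp1, an inhibitor of the secreted metalloproteinases that binds the membrane-type enzymes poorly, lies on chromosome X from 20870166 to 20874735, inside Syn1 on the opposite strand and with no exon base shared. It stood at 3.44, 3.27, 3.19 and 3.46 in AeEM replicates 1 to 4, against 3.13, 3.24, 3.69 and 2.72 in AeMM replicates 1 to 4 (log2(TPM + 1)). AeMM replicates 3 and 4 were the highest and the lowest of the 8 libraries and enclosed every AeEM library. Timp1 averaged 3.34 ± 0.13 in AeEMs and 3.19 ± 0.40 in AeMMs (SD, n = 4 each), with a log2 fold change of 0.15 (SE 0.19, limma adjusted p = 0.75 unpaired and 0.91 with set in the model).
Timp3, an inhibitor that binds to the matrix and also blocks ADAM17, lies on chromosome 10 from 86300372 to 86349506. It stayed between 0.03 and 0.15 in AeEMs and between 0.15 and 0.27 in AeMMs (log2(TPM + 1)), under 1 TPM in all libraries. Of its exon bases 21.3% are shared with Syn3 on the opposite strand. AeEM replicates 3 and 4 and AeMM replicate 4 carry 1 identical value, and whether it is a floor was not tested. Fitted without the filter, Timp3 differed by -0.11 on the log2 scale (limma adjusted p = 0.39). Among the 8 genes tested, Mmp13 was the lowest at 1.23 TPM, and Timp3 averaged 0.114 TPM.

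**Figure D2:**
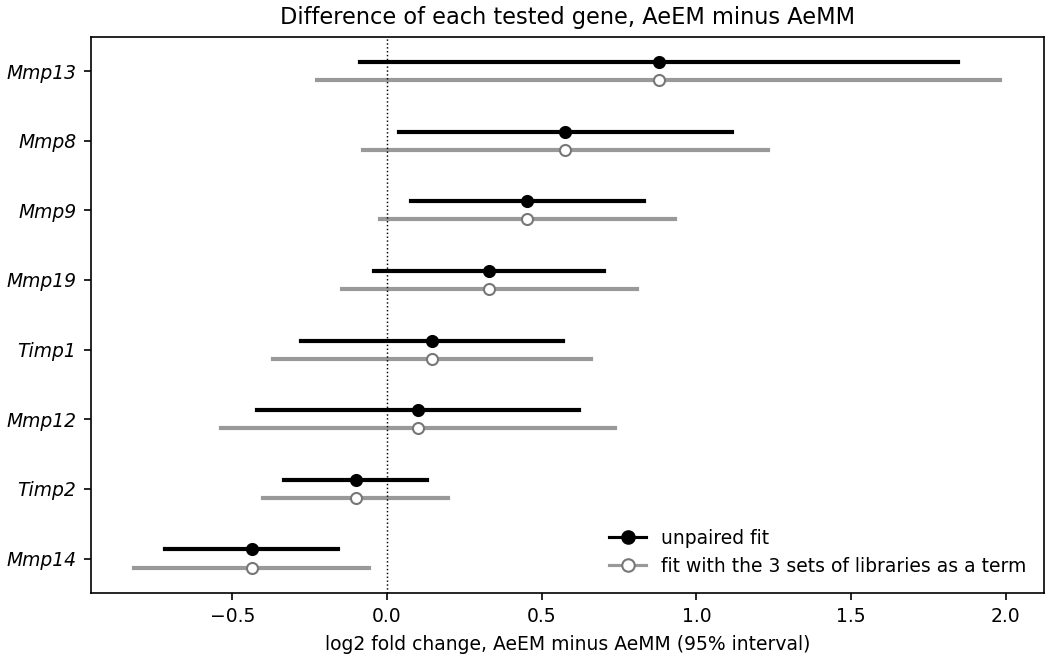
Log2 fold change of the 8 tested genes, AeEM minus AeMM, with its 95% interval in the unpaired limma fit (black) and in the fit with set in the model (grey). The intervals are not corrected for the number of genes tested. Mmp14 at -0.44 is the only gene of the 8 whose interval leaves out 0 in both fits. Such an interval equals an unadjusted limma p under 0.05. That was reached by 18.0% of all tested genes in the unpaired fit and 9.64% with set in the model.

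On the TPM scale, which is per length and allows genes to be set beside each other, Timp2 led, with 58.5 TPM on average over the 8 libraries. Timp1 followed with 8.79, Mmp14 with 6.73, Mmp9 with 4.86, Mmp19 with 4.18, Mmp8 with 1.48, Mmp12 with 1.34, Mmp13 with 1.23 and Timp3 with 0.114. The 6 metalloproteinases together came to between 18.0 and 27.0 TPM in AeEMs and between 16.2 and 19.5 TPM in AeMMs. The 3 inhibitors together came to between 59.0 and 70.3 TPM in AeEMs and between 62.4 and 75.5 TPM in AeMMs. Neither sum separated the groups (exact permutation p = 0.14 for the enzymes and 0.40 for the inhibitors). The ratio of the 3 inhibitors to the 6 enzymes was 3.10 ± 0.49 in AeEMs and 3.82 ± 0.13 in AeMMs (SD, n = 4 each, exact permutation p = 0.057). Mmp27, at 3.91 TPM in AeEMs and 4.64 TPM in AeMMs, is not among the 6 and was not counted in the sums, the ratio or the shares.
The make-up of the transcripts of these 6 enzymes was compared as shares of their sum. Mmp14 made up 22.1%, 26.0%, 31.8% and 24.9% of the summed metalloproteinase TPM in AeEM replicates 1 to 4, against 48.4%, 44.2%, 43.1% and 38.7% in AeMM replicates 1 to 4. The groups did not overlap, and the exact permutation p of 0.0286 was the smallest possible. This share reuses the Mmp14 values given above and is not a separate result. Its sum also holds Mmp8, Mmp9, Mmp13 and Mmp19, whose means were higher in AeEMs. Mmp9 made up 26.7 ± 2.4% in AeEMs and 21.6 ± 3.1% in AeMMs (SD, n = 4 each, exact permutation p = 0.057). Adjusted over the 6 sums, ratios and shares compared, the permutation p of the Mmp14 share was 0.0857, which does not pass 0.05. With 0.0286 as the smallest possible p, no single quantity could pass this adjustment by itself, so it decides little.

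**Figure D3:**
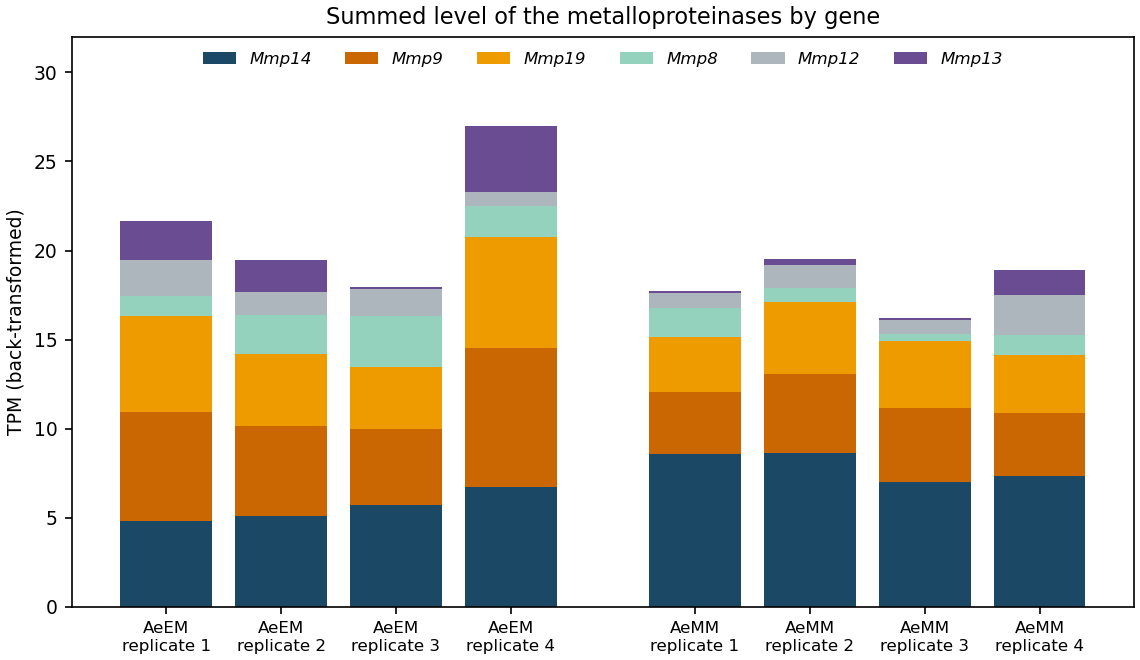
Stacked back-transformed TPM of the 6 metalloproteinases in each library, AeEMs left and AeMMs right, with a vertical axis that starts at 0. Mmp14, at the base, takes between 22.1% and 31.8% of the stack in AeEMs and between 38.7% and 48.4% in AeMMs.

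Mmp9 and Mmp19 followed each other from library to library. Pearson's r over the 8 libraries was 0.98 (exact permutation p = 9.9e-05) and Spearman's rho 0.98 (exact permutation p = 0.00040), and after adjustment over the 28 pairs among the 8 genes p was 0.0028 and 0.011. It was the only pair of the 28 that passed. Without AeEM replicates 1 and 4, the 2 libraries farthest from the median of Mmp9, r was 0.92 over 6 libraries. In deviations from the group means r was 0.99, and over the 4 libraries of replicates 3 and 4 alone it was 0.99. The difference of the 2 genes stayed between 0.09 and 0.28 on the log2 scale. Because the deposited values were adjusted between sets, the 8 values of a gene are not fully independent, which these permutation p do not take into account. By r with Mmp9, Mmp19 ranked 3 among 8800 other tested genes, and 7 of them reached an r of 0.98.
Mmp13 correlated with Mmp9 at r = 0.79 (exact permutation p = 0.015, adjusted p = 0.16) and Spearman's rho = 0.73 (exact permutation p = 0.049, adjusted p = 0.27). Without AeEM replicates 1 and 4 that r was 0.30 over 6 libraries, and in deviations from the group means it was 0.66 over the 8 libraries.

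**Figure D4:**
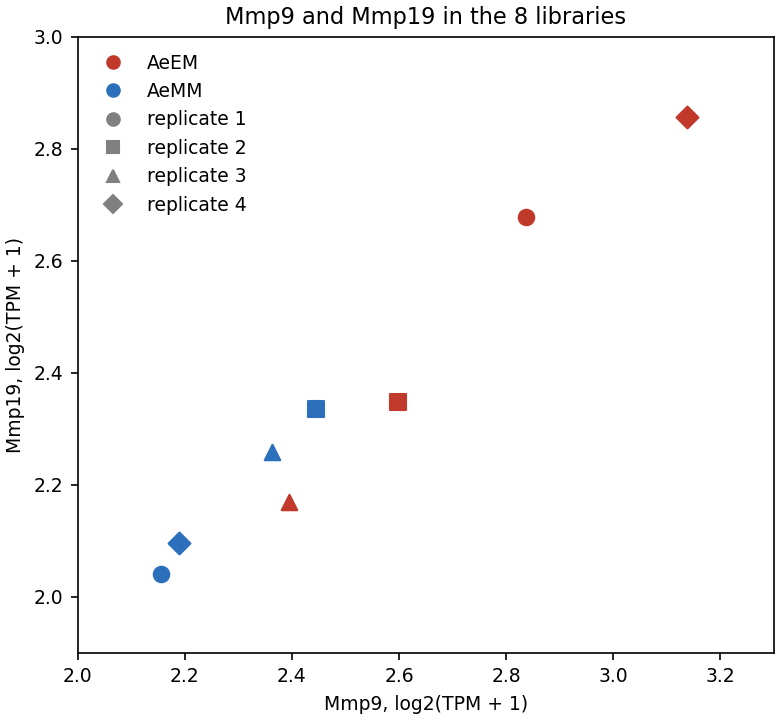
Mmp19 against Mmp9 in the 8 libraries, both in log2(TPM + 1), with AeEMs in red, AeMMs in blue and marker shapes for the replicate number. The points lie close to 1 line, with AeEM replicate 4 at the upper end and AeMM replicate 1 at the lower end.

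Among genes that averaged 10 TPM or more, values much like those of Mmp14 across the 8 libraries were those of Hacd4 (r = 0.99), a fatty acid elongation gene, and 0610012G03Rik (r = 0.98). Those most like Mmp9 belonged to Lsm2 (r = 0.99) and Rnps1 (r = 0.98), both of RNA processing, and Plpp2 (r = 0.98), a lipid phosphatase. These r are descriptions over 8 libraries among 3210 genes, and none of these 5 genes passed the test between AeEMs and AeMMs (limma adjusted p of 0.15 to 0.30).

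Of a list of 18 genes, the other matrix metalloproteinases and Timp4, 16 were in the table and Mmp27 alone reached a mean of 1 TPM. The next was Mmp2, gelatinase A and the proenzyme that membrane-type 1 metalloproteinase activates, with 0.80 TPM in AeEMs and 0.89 TPM in AeMMs. Of the ADAM and ADAMTS metalloproteinases, 7 of 18 were tested and none passed, with log2 fold changes from -0.31 to 0.18. Those with the highest levels were Adam8, a leukocyte sheddase, at 63.9 TPM, and Adam15, at 16.7 TPM over the 8 libraries. Adam9 averaged 3.74 in AeEMs, against 3.84 in AeMMs, while Adam17, which releases tumour necrosis factor, averaged 3.75 in AeEMs, against 3.85 in AeMMs (log2(TPM + 1)).
Of 18 genes that activate, clear or inhibit metalloproteinases or belong to the plasminogen system, 9 were tested, 1 rose, none fell and 8 did not pass. Over all 8801 genes 2.41% passed in the unpaired fit and 0.159% with set in the model. The list gene that rose was Serpinb2, plasminogen activator inhibitor 2, which blocks urokinase. It stood at 1.78, 1.86, 2.51 and 2.27 in AeEM replicates 1 to 4, against 0.85, 0.75, 0.25 and 0.24 in AeMM replicates 1 to 4 (log2(TPM + 1)). All AeEM libraries lay above all AeMM libraries, as they did for 5.72% of all tested genes. The log2 fold change of Serpinb2 was 1.58 (SE 0.22, limma adjusted p = 0.0086), and the adjusted p was 0.071 with set in the model and 0.12 with equal replicate numbers as a block, neither of which passes. It too entered the test through its level in AeEMs, at 3.39 TPM against 0.46 TPM in AeMMs. Plau, urokinase itself, differed by 0.15 on the log2 scale (SE 0.48, limma adjusted p = 0.92) and Plaur, the urokinase receptor, by 0.15 (SE 0.09, limma adjusted p = 0.45). Furin, a convertase that activates the Mmp14 proenzyme, differed by -0.03 (SE 0.27, limma adjusted p = 0.97).
Of 20 matrix proteins that these enzymes cut, 4 were tested, Spp1 fell, and Fn1, Thbs1 and Sparc did not pass. The share of all tested genes that passed was 2.41% in the unpaired fit and 0.159% with set in the model. The other 16, with every collagen gene listed, averaged under 1 TPM. Spp1, the secreted phosphoprotein osteopontin, fell by 1.67 on the log2 scale (limma adjusted p = 0.0029, and 0.033 with set in the model). Thbs1, the matrix protein thrombospondin 1, differed by -0.30 (limma adjusted p = 0.26), Fn1, fibronectin, by 0.26 (limma adjusted p = 0.55) and Sparc, a collagen-binding glycoprotein, by -0.16 (limma adjusted p = 0.72).

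Markers of other cells that are known for these enzymes were read in the same libraries. Of 9 neutrophil markers in the table, 7 averaged under 1 TPM, among them Mpo at 0.0196 TPM, Elane at 0.600 TPM and Ngp at 0.00741 TPM, and the summed level of the list was 19.2 to 23.1 TPM in AeEMs and 34.4 to 46.9 TPM in AeMMs. Those sums came nearly wholly from S100a8, which fell (limma adjusted p = 0.0044 unpaired and 0.060 with set in the model), and Csf3r. Dendritic markers, 3 of 7 tested and led by Cd209a, summed to 44.1 to 106 TPM in AeEMs and 6.29 to 13.4 TPM in AeMMs. Cd209a and Itgax passed in the unpaired fit, both higher in AeEMs (limma adjusted p = 0.0029 and 0.011), and Ccr7 did not (limma adjusted p = 0.15). In that fit 2.41% of all tested genes passed, and with set in the model 0.159% did. The second fit is not given for these dendritic markers. Flt3, Zbtb46, Xcr1 and Clec9a averaged under 1 TPM. The part of neutrophil and dendritic transcripts in the metalloproteinase values was not tested. Markers of fibroblasts, a major source of metalloproteinases and inhibitors in tissue, summed to 0.205 to 1.54 TPM in AeEMs and 0.440 to 1.32 TPM in AeMMs, with all 6 in the table under 1 TPM. T and NK cell markers, all 7 under 1 TPM, summed to 0.488 to 2.45 TPM in AeEMs and 2.90 to 5.65 TPM in AeMMs, and B cell markers, all 4 tested and none called, to 34.3 to 84.6 TPM in AeEMs and 65.2 to 76.3 TPM in AeMMs. Mesothelial and epithelial markers summed to 3.88 to 6.97 TPM in AeEMs and 4.23 to 6.58 TPM in AeMMs.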

How the data were processed

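Smart-seq2 libraries of 4 AeEM and 4 AeMM samples were compared. Per the labels and methods, the authors trimmed with fastp, aligned to mm10 using STAR 2.7.2a and counted using featureCounts of Subread. The deposited values are log2(TPM + 1). The steps from counts to TPM, the log and the adjustment between sets are not given in the sources used here. Per gene, the largest gap between the 3 set means had a median of 0.010 on the log2 scale, against 0.21 between replicates 3 and 4 inside a set.

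Values were used as deposited in an unpaired limma 3.58.1 fit (R 4.3.3, trended variance, Benjamini-Hochberg adjustment) of the 8801 genes averaging 1 TPM or more. TPM were back-transformed as 2 to the power of the value, minus 1, with negative results set to 0. Depth is unknown. The fits were tested on simulated data. Single values were compared by two-sided exact permutation over samples, which takes no account of the adjustment between sets. Named were the 9 genes, the list genes past the threshold or, failing that, the most abundant, and the 3 genes most like each of the 2 members with the smallest p, of which 1 gene is not reported here. Mmp2, Mmp3, Mmp7, Mmp10, Mmp20, Plau, Plaur, Furin, Fn1, Thbs1 and Sparc were added after their values were seen. Members and lists were chosen with earlier results of these data known. Positions came from GENCODE M21 and promoters from RefSeq. Alternatives were pseudocounts of 0.1 and 5, no filter or one of 5 TPM, other scaling, no trend, a fold threshold, a replicate block, set in the model, replicates 3 and 4 only, and each library left out.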

Additional observations from a re-analysis of the deposited data

How the results depend on the processing

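No member passed the threshold under any of the alternatives run, in either direction, and this includes each of the 8 fits that left out 1 library. The filter, the trend, the block and set in the model cannot move a fold change here. Of the 104 refits of the 8 genes in which it could move, 99 kept their direction. Those that turned were Mmp12 with replicates 3 and 4 only (-0.18), without AeEM replicate 1 (-0.015) and without AeMM replicate 3 (-0.0023), Timp1 without AeMM replicate 4 (-0.012) and Timp2 with replicates 3 and 4 only (0.083). Leaving out 1 library, Mmp12 ran from -0.015 to 0.28 and Timp1 from -0.012 to 0.31. Timp2 (-0.10 over all libraries) moved by over 1.5 times without AeEM replicate 2 (-0.049), AeMM replicate 2 (-0.052) and AeMM replicate 3 (-0.19), and Mmp19 (0.33) without AeEM replicate 4 (0.22). The cause was not tested. Mmp14 stayed negative, between -0.52 and -0.18, with a limma adjusted p of 0.077 to 0.92. Mmp9 stayed between 0.27 and 0.57 (limma adjusted p of 0.0999 to 0.84) and Mmp13 between 0.32 and 1.66 (0.075 to 0.93).

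Over all genes, the counts higher and lower in AeEMs, 110 and 102 in the unpaired limma fit, were 9 and 5 with set in the model, 0 and 0 with replicates 3 and 4 only, 29 and 16 when a log2 change of 1 or more was also required, and 78 and 58 with no trend. With a replicate block, a paired fit on equal numbers, they were 3 and 2. The methods give 4 mice for the 8 libraries without saying which share one. The adjustment between sets makes a check of the pairing void for replicates 1 and 2. For replicates 3 and 4, which share a set, the gap between the AeEM libraries and that between the AeMM libraries had r = -0.016 over 8801 genes, and 2 pairs do not settle it. Leaving out 1 library gave 40 to 106 higher and 31 to 113 lower, and the counts moved by over 1.5 times without AeEM replicate 1 (40 and 33), AeEM replicate 2 (46 and 31), AeMM replicate 1 (43 and 34), AeMM replicate 2 (46 and 32) and AeMM replicate 4 (72 and 59). Serpinb2 passed in 14 of 17 refits and Spp1 in 17 of 18, all 8 left-out libraries among them for both genes. Serpinb2 did not pass with set in the model, with the replicate block (limma adjusted p = 0.12) and with replicates 3 and 4 only (0.31), nor did Spp1 with replicates 3 and 4 only (0.31). The unknown depth limits Mmp8, Mmp12, Mmp13 and Timp3 most, the genes of lowest level.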
